A study of Xenopus tropicalis with 5 samples.

Results

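The genes described here encode the extracellular matrix, the receptors that bind it, and the proteins of cell-cell junctions and cell polarity. They were selected by gene symbol, from families that begin with the usual stems, such as col, lam, itg, cdh, cldn, ctnn and adam. The choice was made with earlier results of these data known. The rule left out col4a5 and hspg2. It found 219 listed 5-methylcytosine (m5C) sites in 48 genes, of 23009 sites in 6783 genes over the whole series. For 2 of the 48 symbols, the stem misleads. The product of col4a3bp carries ceramide between membranes, and that of itgb3bp is a centromere protein; both are kept apart below as binding partners. The set also holds proteases and polarity proteins, so it is wider than adhesion in the strict sense.

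The samples were RNA from wild-type Xenopus tropicalis embryos at stage 0, collected as pools, with no treatment or genetic change in any group. Polyadenylated RNA was treated with bisulfite, which converts unmethylated cytosine to uracil and leaves m5C unchanged, and was then sequenced. The groups differ in labelled RNA input: 2 libraries of 100 ng, and 1 library each of 5, 10 and 20 ng. The protocol in the labels is the same for all libraries. It states that at least 100 ng was converted, of which 20 ng was fragmented, and this conflicts with the labelled 5, 10 and 20 ng. Input here means the labelled amount, whatever the step at which it was taken. The question was how far a lower input gives the same sites and the same levels. The authors combined both 100 ng libraries into 1 list, so every group is a single list, and no spread between replicates can be given. A site entered a list with 20 or more reads and a level from 10% upward, where the level is the percentage of reads that kept the cytosine. No listed site had fewer than 5 unconverted reads at a lower input, or fewer than 4 at 100 ng. A site that is not in a list may therefore be unmethylated, below the level limit, too thinly covered or short of unconverted reads. It may also have been removed by another filter of the authors. For a sample with replicates, the study required a level from 10% upward in both, unless coverage was lacking. The 100 ng list may thus follow a different rule from the lists of single libraries. Intervals on single levels and shares are exact Clopper-Pearson intervals at 95%, and cover counting error only, since the reads carry no molecular identifiers.

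A frog embryo at this stage lives on RNA that the mother stored in the egg, and its own genome is still silent. Fibronectin and its integrin receptor serve the cell movements of gastrulation, while claudins, cadherins and catenins hold the cleaving blastomeres together. Planar polarity proteins such as Vangl2 and Scribble later orient cells during convergent extension. In mRNA, m5C is laid down mainly by the methyltransferases NSUN2 and NSUN6. Genes of the egg and of maternal RNA had listed sites, including vegt, gdf1, velo1 and zar1l (10 of 16 fixed symbols at 100 ng). No listed site was found in the 3 follicle cell, 3 blood or 4 muscle genes looked up, in any list. A gene without a listed site is not shown to lack reads. Of 15627 protein-coding symbols, 35.3% had a site at 100 ng, so these few genes do not show which cells gave the RNA.

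At 100 ng, 195 sites were listed in 46 of the genes. The lower inputs had 140 sites in 33 genes at 5 ng, 133 in 37 at 10 ng and 137 in 37 at 20 ng. The number was thus not ordered by input among the lower lists. Each gene carried 4.24 sites on average at 100 ng, compared with 2.90 over all genes, and 15.2% of the genes had a single site, compared with 34.8%. These sites were also deeper, with a median coverage of 266 reads against 183 for all sites. Their levels were spread like those of the series, with a median of 20.8% against 20.9%, and 12 sites (6.15%) at 80% or more against 4.87%. Depth and the number of sites per gene were thus both higher as averages over the set. Whether they went together gene by gene was not tested. Of 255 symbols in the RefSeq gene table that fit the rule, 43 (16.9%) had a site at 100 ng, compared with 35.3% of 15627 protein-coding symbols. A symbol can lack a site because the gene was not expressed in the egg, so this share does not separate expression from methylation.

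**Figure D1:**
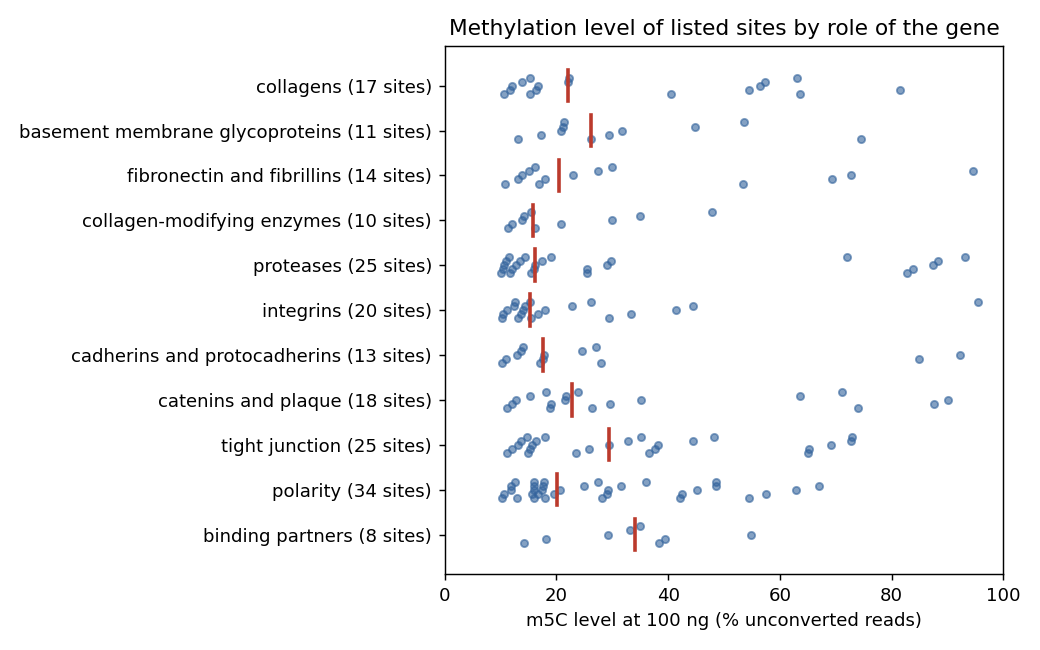
m5C level at 100 ng (x axis, percentage of reads that kept the cytosine) of every listed site, 1 point a site, by role of the gene (y axis); red bars are medians and the vertical offset of points carries no meaning. Most sites lie below 40% in every group, and the group medians run from 15.3% for integrins to 34.0% for the binding partners.

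Collagens are the fibre and sheet proteins of the matrix. Of 39 collagen symbols in the gene table, 4 had a site at 100 ng, with 17 sites at a median level of 22.0%. The collagen gene col4a5, which the rule left out, is not in these counts. They were thinly covered, with 22 to 203 reads and a median of 49, and 14 of the 17 had under 100 reads. At the lower inputs 1, 0 and 1 of the 17 were listed at 5, 10 and 20 ng, so the collagens counted here were seen almost only in the deepest list. Among the collagens counted here, col18a1, whose product gives rise to endostatin, had the most sites, 9 on chromosome 9. Of the 9, 5 lay above 50%, and the highest, at position 56449689, was at 81.6% (40 of 49 reads, interval 68.0 to 91.2%). The other 4 lay between 10.6 and 15.2%, so no col18a1 site was listed between 15.2 and 54.5%. In col4a2, a chain of the basement membrane network, the 4 sites were at 16.7, 22.0, 22.2 and 63.6% with 33 to 42 reads. In col24a1, which has deeper coverage, the 3 sites stayed at 12.0 to 16.3%.

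Basement membrane glycoproteins had 11 sites at 100 ng, with a median of 26.2%. Laminin gamma 1 (lamc1) and nidogen 2 (nid2), which links laminin to collagen IV, were listed in every list. In lamc1 the order of the 3 sites was the same at every input. Position 89826971 of chromosome 4 was at 47.3, 49.4, 46.9 and 44.8% at 5, 10, 20 and 100 ng. Position 89861306 was at 28.5, 31.1, 24.7 and 26.2%, and position 89827153 at 10.9, 16.0, 13.3 and 13.1%. Agrin (agrn), a heparan sulfate proteoglycan, had 4 sites at 20.8 to 74.5% that were listed only at 100 ng, with 47 to 71 reads. One nid2 site stood out in the lower lists and is named for its values: position 74908428 was at 60.6, 38.2 and 45.5% in the lower inputs and at 29.5% at 100 ng. It had 33, 34, 33 and 122 reads, under the 50 reads required for a test in the lower lists, and the interval at 5 ng was 42.1 to 77.1%. With a limit of 20 reads, the adjusted p of Fisher's exact test at 5 ng was 0.204.

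Fibronectin (fn1), the matrix ligand of integrin alpha 5 beta 1, had more sites than any other gene of the set, 14 at 100 ng and 16 over all lists. Its levels ran from 10.8 to 94.6% at 100 ng, a range of 83.8 points and the widest among the 33 genes of the set with at least 3 sites. The highest site, position 53659938 on the minus strand of chromosome 9, was at 94.6, 92.7, 97.3 and 94.6% at 5, 10, 20 and 100 ng (185 to 703 reads). About it lay 2 further sites of high level. Position 53661443 was at 68.9, 63.6, 69.0 and 72.8%, and position 53658220 at 71.1, 64.3, 72.7 and 69.3%. In both, the 10 ng value was the lowest of the 4. The other fn1 sites, apart from position 53657076 at 53.4%, were below 30% at 100 ng. All 4 sites above 50% thus lay from position 53661443 to position 53657076, with low sites between them and on both sides.

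**Figure D2:**
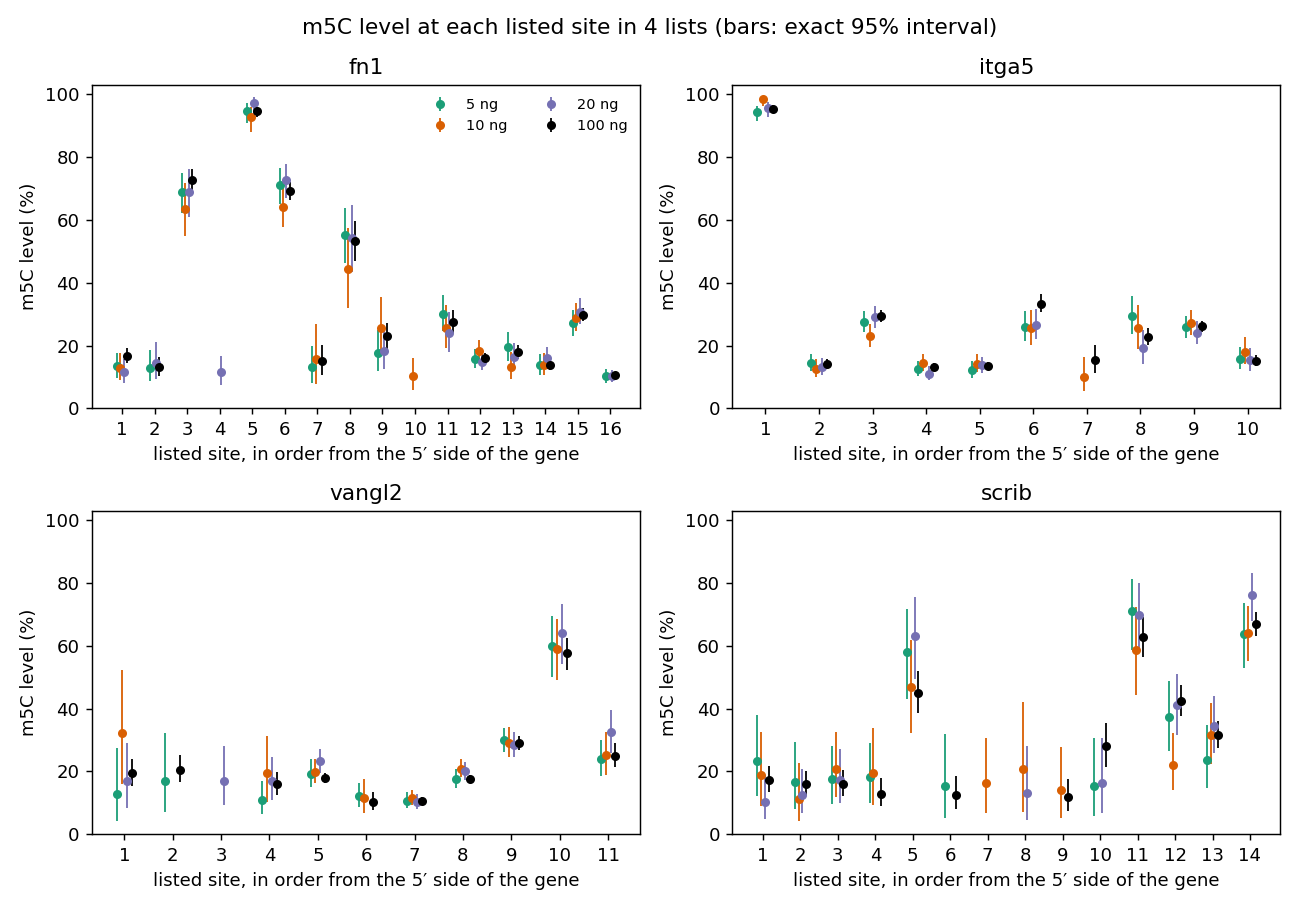
m5C level (y axis, %) at each listed site of fn1, itga5, vangl2 and scrib, in order from the 5′ side of the gene (x axis, site number, not to scale of distance), with 1 colour for each list and bars for the exact 95% interval. A missing point is a site not in that list; the peak of fn1 near 95% and the first itga5 site near 95% appear at every input.

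Among enzymes that modify collagen, the prolyl hydroxylase subunit p4ha2 and the lysyl hydroxylase plod3 each had 5 sites. Those of plod3 were at 12.1 to 34.9% at 100 ng, and 4 of them were in every list. The most deeply covered, position 5283 of a short scaffold, was at 14.8, 11.7, 12.2 and 12.1%. The plod3 site at position 1942 was at 37.3, 30.2, 38.2 and 34.9%, above position 5283 in every list. In p4ha2 the highest site, position 27464413 on chromosome 3, was at 47.9% at 100 ng (121 reads). It was listed at 5 and 10 ng with 32 and 24 reads, and not at 20 ng.

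Proteases of the ADAM, ADAMTS and MMP families had 25 sites at a median of 16.1%. Here the levels fell into a low and a high class: 5 of the 12 sites at 80% or more in the whole set were in adam9, adam10 and adam17. ADAM10 and ADAM17 are the sheddases that release the outer parts of membrane proteins such as Notch and cadherins. Position 89420261 of adam10, on chromosome 3, was at 87.5, 87.6, 85.8 and 87.4% (226 to 955 reads), and the 4 intervals overlapped. The other high adam10 site, position 89345807, was at 88.0, 91.9, 91.7 and 83.8%. A neighbouring site 91 nucleotides downstream was at 14.4, 25.0, 17.3 and 17.4%, so sites this close could lie at opposite ends of the scale in every list. In adam9, 2 sites were at 82.8 and 93.1% at 100 ng and the other 4 at 10.1 to 19.0%. Membrane-type matrix metalloproteinase 15 (mmp15) had 6 sites at 11.5 to 72.0%. Its highest, position 27666007 on chromosome 4, was at 73.1, 59.3, 52.1 and 72.0% with 67, 86, 71 and 425 reads.

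Integrins are the matrix receptors. At 100 ng they had 20 sites in 5 genes, with the lowest median of any group, 15.3%. The alpha 5 subunit gene itga5 had 10 sites. Its first listed site, position 142011571 on the plus strand of chromosome 2, had the highest level of the set at 100 ng. It was at 94.3, 98.5, 95.6 and 95.4% at 5, 10, 20 and 100 ng, and at 100 ng 1143 of 1198 reads kept the cytosine (interval 94.1 to 96.5%). No other itga5 site exceeded 33.4% at 100 ng, so a single position was nearly fully methylated in a transcript that was otherwise at low levels. Its partner itgb1, the beta 1 subunit, had 4 sites with 4370 to 7048 reads. Position 14642059 of chromosome 6 was at 39.0, 39.3, 41.7 and 44.4%, and position 14625656 at 42.0, 38.9, 39.3 and 41.4%. The other 2 were at 12.4 and 10.2%. The genes itga6, itgav and itgb5 had only sites below 20% at 100 ng.

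Cadherins and protocadherins had 13 sites at a median of 17.6%, in 4 of 48 symbols. The gene cdh3, whose product in frogs is the maternal cadherin that joins blastomeres, had 2 sites of low level and high coverage. Position 63863426 on chromosome 4 was at 10.4 to 12.0% over the 4 lists, with 819 to 4757 reads, and position 63886644 at 12.5, 16.1, 12.3 and 13.6%. Protocadherin 1 (pcdh1) held 1 high site, position 20857952 on chromosome 3, at 85.9, 87.3, 86.1 and 85.0%, and 3 sites at 17.1 to 24.6%. The 4 sites of pcdhac2, at 10.2 to 27.9%, had 46 to 111 reads, and 3 of them were in the 100 ng list alone. In pcdh9, 1 site was at 92.2% (64 reads), again at 100 ng only.

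Catenins and desmosomal plaque proteins tie cadherins to the cytoskeleton. They had 18 sites at 100 ng, at a median of 22.8%. The p120 catenin gene ctnnd1 had 5 sites with 1802 to 8032 reads on chromosome 7. Position 58330120 was at 89.5, 89.4, 88.2 and 87.6%, and position 58299191 at 30.6, 32.4, 28.5 and 29.6%. Its remaining 3 sites were at 11.1, 12.0 and 18.9% at 100 ng, so a single position again stood far above the rest. The plakophilin gene pkp3 repeated this form, with position 13964573 of chromosome 4 at 90.6, 89.6, 93.1 and 90.1% and its other 2 sites at 26.4 and 21.5% at 100 ng. In pkp4 the 4 sites were alike, at 15.2 to 23.8%. The only site of ctnnal1, an alpha-catenin relative, was at 64.7, 57.5, 47.6 and 63.6% (106 to 431 reads).

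Tight junction genes held the most deeply covered sites. They had 25 sites in 8 genes at a median of 29.4%. Claudins are the membrane proteins that seal the gap between cells. Position 7055054 of cldn6.1, on the minus strand of chromosome 9, had 43783 reads at 100 ng, the 4th deepest of 18524 sites. It was at 71.7, 71.6, 71.2 and 72.8%, so its levels lay within 1.63 points of each other. The nearby gene cldn6.2 had 1 site, position 7062329, at 36.2, 37.0, 37.4 and 38.2% (20506 reads at 100 ng). In cldn7, position 8233 of its scaffold was at 13.0, 12.6, 13.4 and 13.7% (23283 reads), position 7771 at 35.9, 37.0, 35.9 and 37.7%, and position 7240 at 19.1, 19.1, 19.0 and 17.9%. These claudins therefore kept the same order of sites in every list. Whether reads were shared between the neighbouring copies cldn6.1 and cldn6.2 was not tested. The gene tjp3 encodes ZO-3, a scaffold protein beneath the junction. In tjp3, position 74436885 of chromosome 1 was at 75.3, 74.5, 71.9 and 72.9%, and position 74414295 at 74.7, 75.6, 73.0 and 69.1%.

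Polarity genes had the most sites of any group, 34 at a median of 20.0%. Scribble (scrib) is a basolateral scaffold and Vangl2 a core planar polarity protein. The 12 scrib sites at 100 ng ran from 11.9 to 67.0% with 168 to 628 reads, and the files assign 1 of them to a gene identifier other than that of the rest. Its highest site, position 2102 of the scaffold, was at 63.7, 64.2, 76.2 and 67.0%. A site 55 nucleotides upstream was at 23.7, 31.6, 34.5 and 31.6%. In vangl2, on the minus strand of chromosome 8, position 113913368 was at 60.0, 59.0, 64.2 and 57.6%, and position 113917381 at 29.9, 29.2, 28.5 and 29.0%. The remaining 8 vangl2 sites of the 100 ng list were between 10.2 and 25.0%. The atypical cadherin gene celsr2, also of the planar polarity pathway, had 7 sites at 15.6 to 54.5%, all with 32 to 89 reads. Of the binding partners, col4a3bp had 8 sites at 14.2 to 54.9% at 100 ng, and itgb3bp only 1, at 20 ng.

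The spread of levels inside a gene was wide in general. Among the 33 genes of the set with at least 3 sites, the median range was 47.4 points, and 15 (45.5%) had a range of 50 points or more. Over all 2686 such genes the median was 39.9 points and the share 39.1%. Genes of the set had more sites each, which widens a range, so no difference is drawn from these values.

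Adjacent cytosines gave a closer view. At 100 ng, 8 sites (4.10%) stood next to another listed cytosine, compared with 3.27% of all sites, and formed 4 pairs. In fn1, the 5′ cytosine at position 53647412 was at 13.8, 13.9, 16.2 and 13.8%, and the 3′ cytosine at position 53647411 at 27.1, 28.9, 30.8 and 29.9%. The 3′ cytosine was therefore the higher one at every input. In cldn12, position 20938130 was at 36.6, 40.0, 26.2 and 36.5%, and position 20938131 at 59.5, 48.0, 41.5 and 48.3%, with the same order in every list. The pair in col4a3bp had the opposite order. Position 165584416 was at 27.6, 34.5, 33.1 and 33.1%, and position 165584417 at 19.5, 21.0, 15.1 and 18.2%. In vangl2, positions 113963893 and 113963892 were close, at 19.5 and 20.6% at 100 ng. Over all 305 adjacent pairs of the series the 3′ cytosine was higher in 50.8%, and the median difference was 18.7 points. Neighbouring positions are read by the same molecules, so no test was made within pairs.

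**Figure D3:**
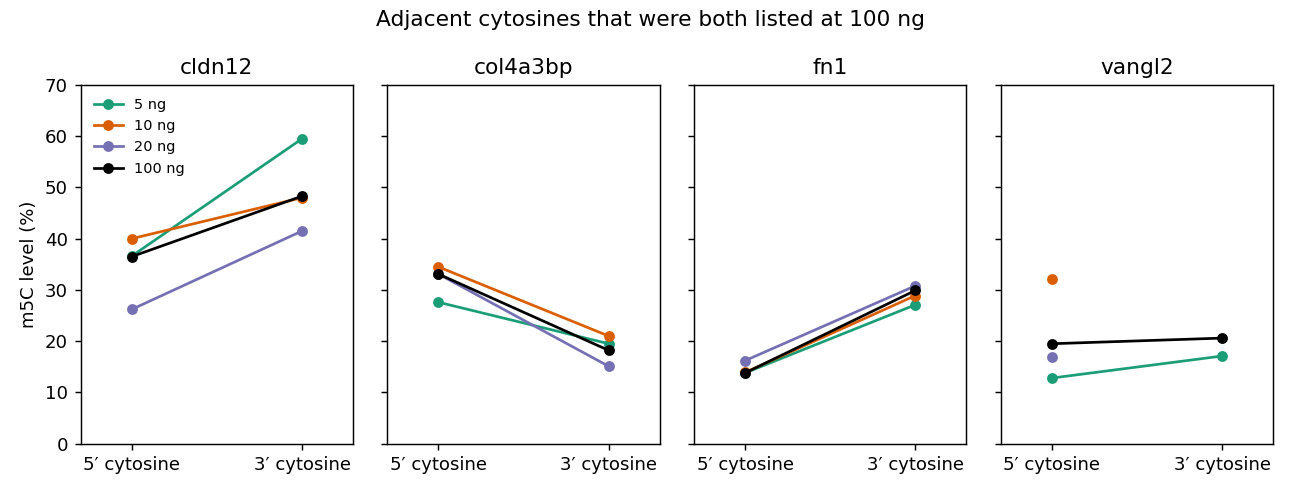
m5C level (y axis, %) of adjacent cytosines that were both listed at 100 ng, 5′ cytosine on the left and 3′ cytosine on the right, with 1 line for each list and 1 panel for each gene. The line rises in every list in cldn12 and fn1 and falls in every list in col4a3bp; the 3′ cytosine of vangl2 was not listed at 10 and 20 ng.

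The lower inputs were next compared with 100 ng. Of the 195 sites, 133 (68.2%, interval 61.2 to 74.7%) were found at 5 ng, 123 (63.1%, 55.9 to 69.9%) at 10 ng and 124 (63.6%, 56.4 to 70.3%) at 20 ng. The shares over all sites were 60.2, 56.9 and 61.3%. The shares of the set are of the same 195 sites, many of which share a gene, so their intervals do not test a difference between inputs. In all 3 lower lists, 106 of the 195 (54.4%) were found, and 45 (23.1%) were in none, beside 46.3 and 27.3% of all sites. Their coverage at 100 ng differed, with overlap: the 106 had a median of 678 reads, and the 45 a median of 56 (22 to 166). Of the 18 sites with 20 to 49 reads, 0 were found at any lower input, which allows a share of up to 18.5%. Of 1995 such sites of all genes, 8.57, 2.06 and 4.51% were found at 5, 10 and 20 ng. From 50 to 99 reads, 6, 4 and 5 of 32 were found at 5, 10 and 20 ng, beside 24.7, 15.5 and 24.3% of all sites. With 1000 reads or more the counts were 48, 45 and 48 of 50, beside 92.3, 93.7 and 93.9%. The ratio of coverage to that at 100 ng was taken at the found sites of that depth. Its median at 5, 10 and 20 ng was 0.202, 0.212 and 0.237. The 100 ng list combines both 100 ng libraries, while each lower list comes from a single library. Sequencing depth per library was not taken into account in these ratios. Reads at a site also combine the amount of a transcript, its recovery after bisulfite and its mapping. None of these parts can be told apart here.

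**Figure D4:**
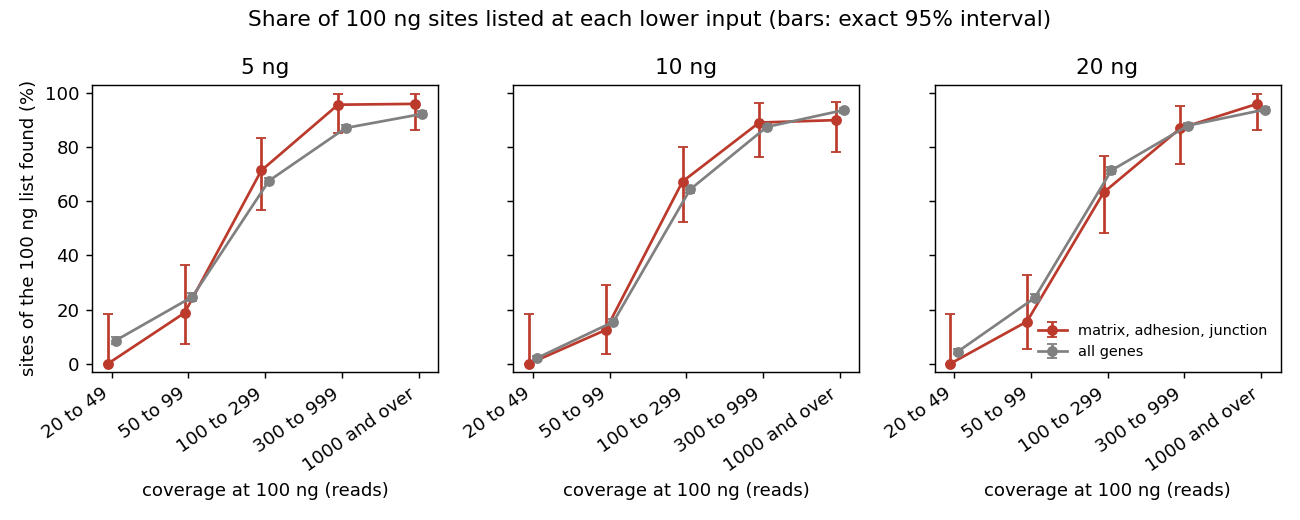
Percentage of the sites of the 100 ng list that were also listed at 5, 10 or 20 ng (y axis), by coverage at 100 ng (x axis, reads, 5 classes), for the matrix, adhesion and junction genes (red) and all genes (grey), with exact 95% intervals. The share climbs from 0 of 18 to 45 or 48 of 50 sites. The red intervals include the grey value in 15 of 15 classes, but they are wide and the red sites are among the grey. The panels score the same sites, so this does not show that the shares are equal.

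The role groups differed in how many of their sites were in all 3 lower lists, where 46.3% of all sites were found. Of the integrin sites, the deepest group with a median of 1440 reads, 13 of 20 were in all 3 lower lists, and of the polarity sites (349 reads) 18 of 34. Of the tight junction sites of the 100 ng list, 18 of 25 were in all 3 lower lists, and of the fn1 sites 11 of 14. Of the collagen sites 0 of 17 were, and of the cadherin and protocadherin sites 6 of 13. At least 100 reads at 100 ng were reached by 14 of 14 fn1, 24 of 25 tight junction and 16 of 20 integrin sites. For polarity genes this was 26 of 34, for cadherins and protocadherins 8 of 13 and for collagens 3 of 17. The part of depth in these counts was not tested. Sites were listed at 100 ng only in 8 genes: adam7, adamts1, agrn, col18a1, col4a2, col9a3, dlg5 and itgav. In 32 genes every list held at least 1 site, and in 30 genes a given site was in all 4 lists. These gene counts were not made over all genes, so they do not set the named genes apart.

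Among the 50 sites with at least 1000 reads, 44 (88.0%) were in all 3 lower lists, beside 86.6% of 2621 sites of all genes. The other 6 were missing from at least 1 lower list. All 6 lay just above the level limit at 100 ng, at 10.2 to 12.0%, and belonged to cldn12, ctnnd1 (2 sites), dlg1, fn1 and itgb1. The 21 sites of this depth with a level of at least 20% were all in the 3 lower lists. The levels of missing and found sites were not counted over all genes, so they are not a trait of the set. In the other direction, 24 sites in 16 genes were listed at a lower input and not at 100 ng, as were 4485 of the 23009 sites of all genes. Of these, 19 were in a single list, and 22 had no level of 20% or more. Of the sites in the 5, 10 and 20 ng lists, 133 of 140, 123 of 133 and 124 of 137 were also in the 100 ng list, beside 84.8, 85.4 and 86.2% of all sites. A single site was in all 3 lower lists and not at 100 ng. This was position 74425499 of tjp3, at 16.0, 13.9 and 17.9% with 268, 202 and 273 reads. The other tjp3 sites were listed at 100 ng with 392 to 2408 reads, and why this one was not is not shown by the files.

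Levels were then set against each other, with a minimum of 50 reads. Coverage is known only for listed sites, so a comparison leaves out any site missing from a list, also one that fell below 10%. The agreement below is therefore that of sites at 10% or more in each list compared. In all 4 lists, 87 sites of the set in 24 genes were listed with at least 50 reads. Their median levels were 27.0, 25.6, 24.0 and 26.4% at 5, 10, 20 and 100 ng. The corresponding medians over 6162 sites of all genes were 25.1, 25.6, 25.5 and 25.5%. Across the 4 lists the range of a site had a median of 5.40 points and a maximum of 21.0. Over the 6162 sites these were 5.96 and 34.1 points. The range was 10 points or more at 16.1% of the 87 sites and 21.9% of the 6162. The SD of levels over the 87 sites at 100 ng was 23.0 points, a measure unlike a range. Pearson's r with 100 ng was 0.987 at 5 ng (105 sites), 0.982 at 10 ng (93) and 0.977 at 20 ng (102). Over all sites r was 0.973, 0.974 and 0.976. These are correlations across sites that share libraries, and are given as a description. The mean difference from 100 ng was 0.382 points at 5 ng (SD 3.69), −0.707 points at 10 ng (SD 4.30) and −0.851 points at 20 ng (SD 5.03). The sign was not fixed: with 100 reads it was −0.373 points at 5 ng, and with 20 reads 0.108 points at 10 ng. At 104 of 105, 90 of 93 and 95 of 102 sites of the set the level was within 10 points of that at 100 ng. For all sites this held at 7443 of 7923, 6967 of 7385 and 7618 of 8018 at 5, 10 and 20 ng. The mean difference over all sites was −0.414, −0.00870 and −0.0523 points at 5, 10 and 20 ng (SD 4.96, 4.93 and 4.70). Whether the set differed from all sites in these values was not tested.

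**Figure D5:**
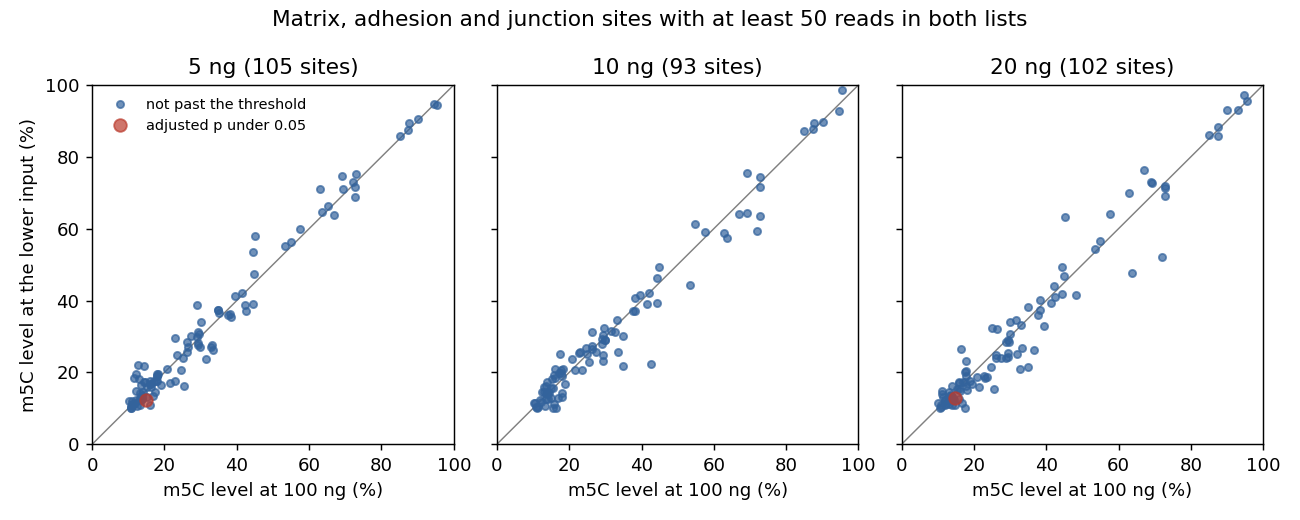
m5C level at 5, 10 or 20 ng (y axis, %) against the level at 100 ng (x axis, %), 1 point for each site with at least 50 reads in both lists, with the line of equal levels. Red marks the site with an adjusted p under 0.05, the same cldn6.1 position at 5 and 20 ng, which lies close to the line.

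Fisher's exact test (two-sided) with Benjamini-Hochberg adjustment over all sites of a pair of lists called 1 of these sites at 5 ng, 0 at 10 ng and 1 at 20 ng. Of all sites tested against 100 ng, 0.278, 0.0406 and 0.150% were called at 5, 10 and 20 ng. Unadjusted p-values under 0.05 were found at 7, 14 and 12 sites by the same exact test, which were 6.67, 15.1 and 11.8% of those tested, beside 8.75, 8.61 and 7.40% of all sites. Between the lower inputs 0 sites of the set were called, compared with 0.0146% of all sites for 5 against 10 ng, 0.0279% for 5 against 20 ng and 0.0429% for 10 against 20 ng. There, 5, 4 and 6 sites had an unadjusted p under 0.05, or 5.49, 4.17 and 6.82%, beside 7.21, 6.66 and 6.54% of all sites. The test compares lists and not inputs, since each list is 1 set of reads.

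Both calls were at the same position, 7054655 of cldn6.1. It was at 12.4% at 5 ng (846 of 6804 reads), 13.0% at 10 ng (590 of 4547), 12.8% at 20 ng (760 of 5949) and 14.9% at 100 ng (2611 of 17516). All 3 lower inputs were below 100 ng, by 2.47, 1.93 and 2.13 points, and they share the 100 ng list. The adjusted p-values of Fisher's exact test were 0.00117, 0.146 and 0.0327. With the variance of a normal test raised 1.42 times, the excess seen between the lower lists, they were 0.0505, 0.766 and 0.422, so no call was left. Over the alternatives run, the adjusted p ranged from 0.000751 to 0.0505 at 5 ng and from 0.0259 to 0.422 at 20 ng.

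Among the 87 sites with 50 reads in every list, the 3 with the largest mean difference from 100 ng in 1 direction did not pass the test. All 3 were lower at the lower inputs. Below this limit of reads, larger differences went the other way: 18.6 points at the nid2 site above, 10.9 points at position 48453 of scrib and 9.02 points at position 27441142 of p4ha2. The scrib site at position 3217 was at 37.2, 22.2, 41.1 and 42.5% with 78, 90, 107 and 412 reads. The exact test gave a smallest adjusted p of 0.0953, at 10 ng, and its values at 5 and 20 ng lay within the interval at 100 ng or just below it. In mmp15, position 27681933 was at 16.1, 23.0, 15.3 and 25.5%, with a smallest adjusted p of 0.388 (exact test). In itga5, position 142023388 was at 26.1, 25.6, 26.7 and 33.4%, with a smallest adjusted p of 0.376 (exact test). Over the 87 sites, 13 were higher and 16 lower in all 3 lower lists, compared with 997 and 1305 of 6162. The lower lists share the 100 ng values, so these directions are not independent.

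Other genes of adhesion and matrix that the symbol rule leaves out were looked up in a list of 77 symbols. At 100 ng 33 of them had a site, with 99 sites at a median level of 20.1%, and 23, 24 and 26 had one at 5, 10 and 20 ng. The higher site of beta-catenin (ctnnb1), the partner of cadherins, was at 24.5, 25.9, 26.4 and 25.4%, at position 70832748 of chromosome 6. Its other site, position 70833679, was at 16.0, 16.5, 18.7 and 16.9%. The gene of kindlin-2, fermt2, which activates integrins, had its highest site at position 73670875 of chromosome 8, at 37.1, 40.7, 43.3 and 38.8%. Its other sites were at 10.4 to 15.4% at 100 ng. Of the 44, 39 and 44 sites tested against 100 ng at 5, 10 and 20 ng, 0 were called higher and 0 lower. Over all sites 0.278, 0.0406 and 0.150% were called. With so few sites, the 0 calls are not a result about these genes.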

How the data were processed

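The authors trimmed reads with cutadapt and Trimmomatic, and mapped them with HISAT2 (2.10, per the labels) to the converted Xenbase X. tropicalis genome named in the study's methods, then to converted transcripts with Bowtie2. Bases of low quality, reads rich in cytosine and conversion-resistant genes were removed, and calling used a binomial test on 1 side. Reads in dense clusters of m5C may be lost by these filters. For each site the authors deposited the coverage (a count of reads), the m5C level (a fraction, printed here as a percentage) and a p-value. The deposited p-values were not used. Both 100 ng libraries were combined by the authors. The study uses both technical and biological for its replicates.

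Unconverted reads were taken as level times coverage, whole to within 2.6e-05 reads. Sites were matched by chromosome, position and strand. Whether positions start from 0 or 1 is not given in the files. Symbols were looked up in the RefSeq gene table of UCB_Xtro_10.0, a later assembly (45 of 48 matched), and none of its coordinates was used. Exon and UTR positions and sequence motifs were not analysed here. Fisher's exact test was run at sites listed with 50 or more reads in both lists. It was adjusted over all sites of each of 6 pairs of lists at a threshold of 0.05, and was tried on simulated reads. Those reads had binomial variance only, without the excess named next, so they do not show its error rate in these data. The second test multiplied the binomial variance by 1.42, its mean excess between the lower inputs at sites of at least 30%. Genes were named by their number of sites within a role group, and sites by highest level, highest coverage, a call, the largest difference of 1 direction and the closest spacing; others were named after their values were seen. The sites of 1 gene are counted in the totals and not reported singly here. The genes and lists were chosen with earlier results of these data known. Python 3.11.15, pandas 2.3.3 and SciPy 1.17.1 were used.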

Additional observations from a re-analysis of the deposited data

How the results depend on the processing

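Of 121 alternative values, 93 stayed close to the main value or, for an adjusted p, on the same side of the threshold. Close meant within a fixed ratio for counts, and inside the interval of the main value for shares, medians and mean differences. The sign of a difference could change within these limits. Some values could not move, such as 0 calls at 10 ng under an added minimum difference. The count of 93 is therefore not a measure of stability. Counts of sites moved with the limits. With at least 100 reads, 83, 73 and 82 sites were left at 5, 10 and 20 ng, and 22 and 24 genes at 10 and 20 ng. With at least 50 reads, 24 genes were left at 10 ng. With a level of at least 20%, 73, 81, 68 and 100 sites were left at 5, 10, 20 and 100 ng. The share found rose to 75.1% at 5 ng among sites with at least 50 reads at 100 ng, and to 87.6, 82.1 and 82.1% at 5, 10 and 20 ng among those with at least 100. A read-weighted mean in place of the median level gave 33.0, 33.2, 33.0 and 35.2%. The mean difference from 100 ng was −0.373 points at 5 ng with at least 100 reads, and −1.60 points at 10 ng among sites of at least 20% in the other lower inputs. The sign at 5 ng thus depended on the coverage limit; at 10 ng, 20 reads and leaving out fn1, scrib and itga5 gave 0.108 and 0.0191 points. Calls at 5 and at 20 ng went from 1 to 0 with a minimum difference of 10 points and with the raised variance, and at 20 ng also with adjustment over all 6 pairs (adjusted p of Fisher's exact test 0.0557 for cldn6.1). Leaving out the binding partners moved none of the values computed without them past these limits.

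No paired analysis was possible because the lower inputs have 1 library each and both 100 ng libraries were combined. For the same reason no result without a library is given. A missing site is not shown to be unmethylated. Of the 18 sites of the set with under 50 reads at 100 ng, 0 were found at a lower input. Of 1995 such sites of all genes, 8.57, 2.06 and 4.51% were found at 5, 10 and 20 ng. The part of depth was not tested.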
